A study of Mus musculus with 6 samples.

Results

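The 42 genes described here encode the core machinery of autophagy, its cargo receptors, the factors TFEB and TFE3, the lysosomal membrane proteins LAMP1 and LAMP2, and the 4 FoxO transcription factors. They were chosen by symbol from what is known of the pathway, with earlier results of these data known. All 42 were matched to a row among the 22032 genes of the mouse expression matrix. The matrix holds RNA-seq levels of sorted chondrocytes from mouse knee cartilage, with 3 embryonic and 3 adult samples that the series describes as biological replicates. Adult animals were 2 months old, and the methods give them as male B6 mice. The labels give the embryonic stage as 16.5 wks, a length that no mouse gestation reaches, whereas the study's text gives embryonic day E16.5. No transgene or treatment is named for any sample, and the strain and sex of the embryos were not given in the sources used here. Cells of both stages were sorted for BMPR1B, a bone morphogenetic protein receptor on the surface of chondrocytes, and against alkaline phosphatase (ALP) and blood and vessel lineages, which for the adult cells the methods name as CD31, CD45 and Ter119. How many animals went into a sample was not given in the sources used here.

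Autophagy delivers parts of the cytoplasm to the lysosome. The ULK kinase complex starts it, a class III PI3-kinase complex marks the membrane where the autophagosome forms, and ATG9, ATG2 and WIPI proteins bring in lipid. Conjugation enzymes then attach proteins of the ATG8 family (the LC3 and GABARAP proteins) to that membrane, cargo receptors tie their cargo to ATG8 proteins, and the closed vesicle fuses with a lysosome. FoxO factors and TFEB drive transcription of many of these genes when growth factor signaling or nutrients are low. In articular cartilage, whose cells are long-lived and rarely divide, autophagy and FoxO factors are known for keeping chondrocytes and their matrix intact with age.

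The factors TFEB and TFE3 recognize a short palindromic core, so promoters of the list were searched for TCACGTG on both strands from 250 bases before to 50 after each start site, in the sequences of RefSeq for GRCm38.p6. A promoter was found for 34 of the 42 genes, and the core was present for 4 of them, *Atg3*, *Atg7*, *Atg14* and *Lamp1*. It was present in 3.77% of all 32851 promoters and for 6.98% of the 10292 tested genes with a promoter. The shorter E-box CACGTG, which every TCACGTG contains, was present for 5 of the 34 genes (the same 4 and *Atg5*) in 7.15% of all promoters and for 11.7% of the tested genes. A FoxO core, GTAAACA, was found for 0 of the 34 genes, in 3.65% of all promoters and for 3.05% of the tested genes. CAAAACA, the core of the insulin response element, was found for 2 of the 34 (*Gabarap* and *Nbr1*), in 6.28% of all promoters and for 5.13% of the tested genes. Shown next are the stretches before the start sites of 3 genes that hold the core and of *Sqstm1*, which had no match and was the gene of the list that rose most from embryonic to adult samples. Each is read 5′ to 3′ on the strand of its gene, cut to bases outside annotated exons (GENCODE M21), with TCACGTG or its reverse complement CACGTGA in capitals.

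*Lamp1*, chr8:13159011-13159160, plus strand, intergenic: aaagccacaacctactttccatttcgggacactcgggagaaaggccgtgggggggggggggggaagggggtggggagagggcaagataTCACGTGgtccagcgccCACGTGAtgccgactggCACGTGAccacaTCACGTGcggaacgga

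*Atg7*, chr6:114670946-114671095, plus strand, in an intron of *Atg7* before a start site inside the gene: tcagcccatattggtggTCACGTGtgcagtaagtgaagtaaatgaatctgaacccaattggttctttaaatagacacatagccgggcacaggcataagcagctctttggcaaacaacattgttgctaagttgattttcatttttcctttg

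*Atg3*, chr16:45158707-45158784, plus strand, intergenic: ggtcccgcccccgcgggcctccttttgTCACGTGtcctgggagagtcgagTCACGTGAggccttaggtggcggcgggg

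*Sqstm1*, chr11:50210828-50210889, minus strand, intergenic: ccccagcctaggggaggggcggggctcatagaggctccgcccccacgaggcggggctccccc

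The *Lamp1* stretch held 4 matches, which began 62, 45, 28 and 16 bases before the start site. The *Atg7* stretch held 1 match, 133 bases before its start site, and the *Atg3* stretch 3, of which those that began 72 and 71 bases before the start overlap on opposite strands. *Lamp1* and *Atg7* were higher in adult chondrocytes, while *Atg3* and *Atg14* did not pass the test. A match is only a stretch of letters, and binding was not measured.

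Levels are given in TPM, a transcript abundance that is corrected for transcript length and scaled to a total shared by all samples, and differences as adult minus embryonic on the log2(TPM + 1) scale. Stages were compared with limma over all 13125 genes whose mean over the samples reached 1 TPM, and each adjusted p is its Benjamini-Hochberg value over those genes (3 samples per stage, threshold 0.05). All 42 genes passed the filter on low values, with means over the 6 samples from 2.75 to 2508 TPM and a median of 37.0 TPM.

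Of the 42 genes, 15 were higher in adult chondrocytes and 1, *Foxo6*, was lower, while 26 did not pass (14 higher and 3 lower when scaled by median of ratios). Among all genes tested, 23.9% were higher and 21.4% lower, so the share of the list that was higher (35.7%) was above that of all genes and the share that was lower (2.38%) below it. The list was chosen with earlier results of these data known, so these shares only describe it. The shares of all genes are also the background for the counts by group below. All 3 adult samples stood above all 3 embryonic samples for 24 of the 42 genes (57.1%, against 30.7% of all genes) and below them for 4 (25.9% of all genes were below). The median difference of the list was 0.48, beside 0.16 for all genes tested. That median of all genes moved with the scaling, to 0.09 under quantile normalization, 0.03 when scaled by median of ratios and 0.25 with the 20 most abundant genes left out, and the median of the list stood above it in each case (0.40, 0.34 and 0.58). The spread between samples of a stage had a median SD of 0.18 in the embryonic and 0.25 in the adult samples on the log2 scale.

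**Figure D1:**
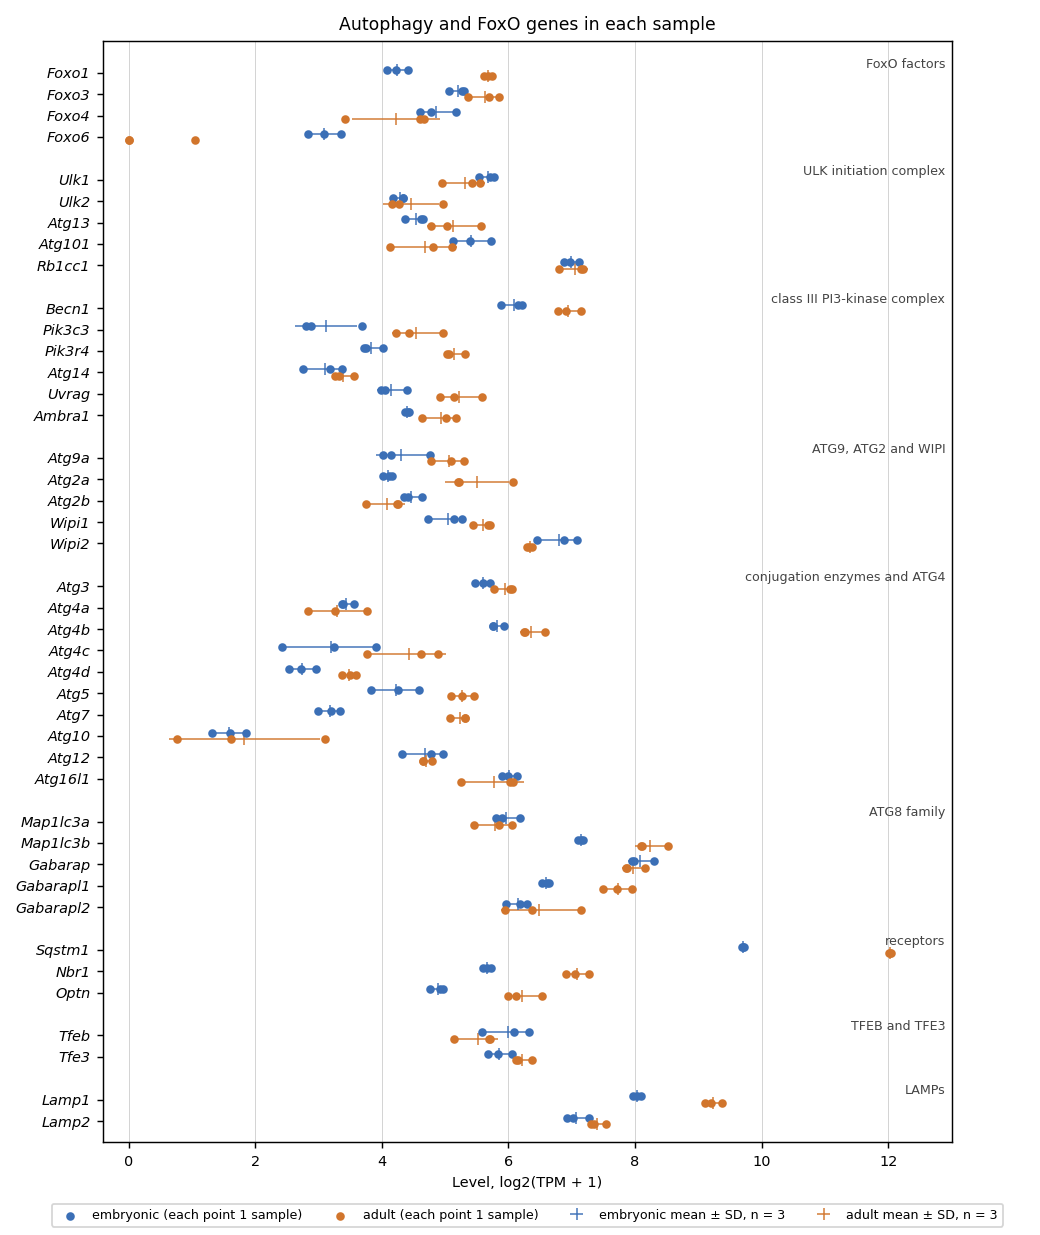
Level of each of the 42 genes as log2(TPM + 1) on the horizontal axis, by functional group. Each point is 1 sample (blue embryonic, orange adult), and bars are the mean ± SD of 3 samples, left out for adult *Foxo6*, which is listed at 0 in 2 samples. *Sqstm1* lies farthest to the right in all 6 samples, and *Foxo6* farthest to the left in the adult ones.

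The cells carried cartilage transcripts at both stages. The 11 chondrocyte markers searched included *Sox9*, *Acan* and *Col2a1*. They summed to 23330 to 25110 TPM in the embryonic and 9693 to 12770 TPM in the adult samples, and none was at 0. With stage 7 of them fell, 3 rose (*Sox9*, *Sox5* and *Comp*) and 1, *Acan*, did not pass. *Col2a1* alone gave 14150 to 15250 TPM in embryonic and 3166 to 7084 TPM in adult chondrocytes. *Col9a1* fell from 1913 to 1946 TPM down to 27.23 to 64.25 TPM, and *Matn3* from 181.4 to 233.8 TPM down to 1.11 to 3.65 TPM. Of 8 markers of synovial and tendon fibroblasts, 6 fell and 0 rose with stage, and their sum went from 7920 to 9249 TPM in the embryonic samples down to 786.6 to 1391 TPM. The 7 osteoblast markers counted 4 higher and 2 lower. Their sum was lower in the adult samples (566.3 to 1113 against 4922 to 6007 TPM), of which *Col1a1* gave 170.4 to 637 against 4862 to 5971 TPM. The 4 that rose were *Bglap*, at 0 in every embryonic sample and 15.85 to 83.87 TPM in the adult ones, *Bglap2*, at 0 and then 0.26 to 43.86 TPM, *Ibsp*, from 0.148 to 29.64 TPM up to 235.3 to 316.0 TPM, and *Alpl*, which encodes the ALP that the sort selected against, from 14.41 to 17.86 TPM up to 32.74 to 38.6 TPM. The 12 leukocyte and macrophage markers summed to 11.1 to 21.4 TPM in the embryonic and 427.4 to 480.2 TPM in the adult samples, of which *Cd14* gave 356.5 to 457.8 TPM. Of these, 7 were tested, all with positive differences, and 3 were higher, *Cd14*, *Cd68* (4.22 to 12.6 against 17.2 to 33.3 TPM) and *Itgam* (0.40 to 1.04 against 1.38 to 18.2 TPM). *Lyz2* did not pass but reached 30.65 TPM in adult replicate 1, while *Ptprc*, which encodes CD45, was at most 2.29 TPM and *Adgre1* at most 0.16 TPM in any sample. The 6 osteoclast markers summed to 83.1 to 104.3 against 286.2 to 549.1 TPM, nearly all of it *Ctsk*. Of these, 2 were tested and were higher, *Ctsk* and *Acp5* (0.74 to 2.49 against 14.9 to 18.9 TPM, adjusted p = 0.00052 in limma). The other 4 did not reach the filter on low values, with *Dcstamp* at 0 in every sample. Endothelial, erythroid and skeletal muscle markers summed to at most 45.7, 257 and 85.2 TPM in any sample. The 20 highest genes took 10.7% to 11.1% of the total in the embryonic and 14.6% to 17.7% in the adult samples. What part these changes in composition have in the differences given next was not tested, and in such bulk samples fewer cells of a type and less RNA per cell cannot be told apart.

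Of the 4 FoxO genes, 1 rose and 1 fell. *Foxo1* (chr3:52268336-52353221 in GRCm38) encodes the FoxO factor best known for metabolic control by insulin, and measured 17.8, 15.9 and 20.2 TPM in the embryonic samples and 47.8, 52.3 and 49.9 TPM in the adult samples. Every adult sample stood above every embryonic one, with no overlap and a narrow spread within each stage. The difference was 1.43 ± 0.19 (SE, adjusted p = 0.000494). *Foxo6* (chr4:120267079-120287349), known mainly from the nervous system, was 9.26, 7.47 and 6.16 TPM in the embryonic samples and was listed at 0 in 2 adult samples and at 1.07 TPM in the third. All adult samples were below all embryonic samples. The difference of -2.74 ± 0.48 (SE, adjusted p = 0.00196) depended on the pseudocount and was -5.07 with a pseudocount of 0.1 in place of 1.

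*Foxo3*, linked to stress resistance and long life, measured 37.3, 32.3 and 38.1 TPM in the embryonic samples and 50.8, 56.5 and 40.01 TPM in the adult samples. The adult samples lay above the embryonic ones, with only a narrow gap between the nearest of them. The difference of 0.43 did not pass (adjusted p = 0.0992, 95% interval -0.01 to 0.87), and it passed when adult replicate 3 was left out, at 0.57 (adjusted p = 0.0404). *Foxo4*, on the X chromosome, measured 34.8, 23.4 and 26.4 TPM in the embryonic samples and 9.72, 24.2 and 23.2 TPM in the adult samples. Adult replicate 1 was far below the other adult samples, of which 1 lay within the embryonic range and 1 just below it, and the difference was -0.62 (adjusted p = 0.186).

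The make-up of the FoxO family shifted with stage, as the plot of family shares shows. *Foxo1* made up 20.1% ± 2.16 of the summed TPM of the family in the embryonic samples and 42.4% ± 2.67 in the adult samples (SD, n = 3). Values of the stages did not overlap, with 17.9% to 22.2% against 39.3% to 44.1%. *Foxo3* held 40.1% ± 2.24 of the summed TPM of the family in the embryonic samples and 41.5% ± 5.99 in the adult samples, a difference within the spread. *Foxo4* held 29.0% to 35.1% in the embryonic and 8.98% to 20.3% in the adult samples, again without overlap. The summed level of the family was 89.7 ± 10.1 TPM in the embryonic and 119 ± 12.9 TPM in the adult samples, without overlap.

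**Figure D2:**
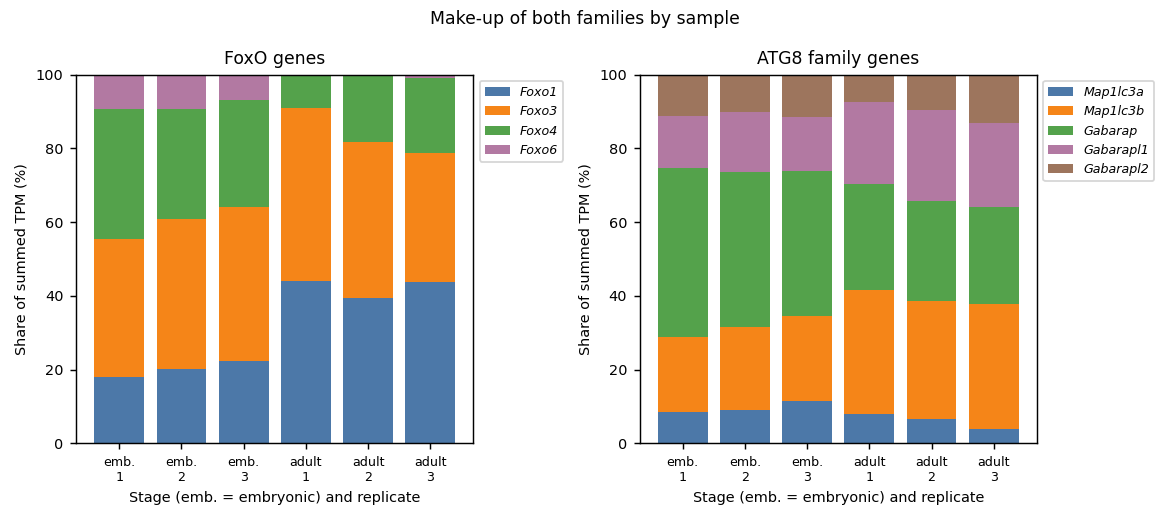
Share of each gene (%) in the summed TPM of the 4 FoxO genes (left) and of the 5 ATG8 family genes (right), 1 stacked bar per sample. *Foxo1* takes 39.3% to 44.1% of the FoxO total in adult samples against 17.9% to 22.2% in embryonic ones, and *Gabarap* 26.2% to 28.7% of the ATG8 total against 39.4% to 45.8%.

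Of the 5 genes of the ULK initiation complex, 0 passed the test in limma, with differences from -0.73 to 0.58 (1 higher and 1 lower at an unadjusted p under 0.05). *Ulk1*, the kinase that starts autophagy, measured 51.4, 45.1 and 53.8 TPM in the embryonic samples and 30.1, 45.7 and 42.1 TPM in the adult samples, and adult replicate 2 lay within the embryonic range. *Atg101*, which encodes a subunit of the complex, had all adult samples (16.4 to 33.6 TPM) below all embryonic samples (33.9 to 51.6 TPM). Its difference of -0.73 had an adjusted p of 0.0661 and passed the test under quantile normalization, under median of ratios and without adult replicate 2. *Atg13*, the partner that holds the complex together, had all adult samples above all embryonic ones and a difference of 0.58 (adjusted p = 0.0906), which passed without adult replicate 1 (0.75, adjusted p = 0.0473). *Ulk2* and *Rb1cc1*, the latter at 110.8 to 144 TPM in all 6 samples, overlapped between the stages.

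The class III PI3-kinase complex, which makes the phosphoinositide that marks the nascent autophagosome, counted 4 of 6 genes higher in adult chondrocytes. *Pik3c3* encodes the catalytic subunit VPS34 and measured 5.95, 6.34 and 11.8 TPM in the embryonic samples and 30.2, 17.6 and 20.6 TPM in the adult samples. Embryonic replicate 3 was nearest to the adult range, and the stages did not overlap. The difference was 1.42 ± 0.35 (SE, adjusted p = 0.0107). *Pik3r4*, its regulatory subunit VPS15, measured 15.2, 12.4 and 12.2 TPM in the embryonic samples and 31.6, 32.5 and 38.7 TPM in the adult samples. The lowest adult sample was above the highest embryonic one by more than the whole range of either stage, and the difference was 1.31 ± 0.23 (SE, adjusted p = 0.0019).

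*Becn1*, the Beclin 1 scaffold on which both forms of the complex assemble, measured 57.9, 73.5 and 69.7 TPM in the embryonic samples and 119.6, 108.5 and 140.2 TPM in the adult samples. All adult samples were above all embryonic ones, and the difference was 0.86 ± 0.16 (SE, adjusted p = 0.00278). Its exons share 43.9% of their bases with *Cntd1* on the opposite strand, and *Cntd1* was at most 5.2 TPM. *Uvrag*, which directs the complex to endosomes and to maturing autophagosomes, measured 14.9, 20.1 and 15.7 TPM in the embryonic samples and 29.3, 46.9 and 34.3 TPM in the adult samples. Again the stages did not overlap, with a difference of 1.07 ± 0.25 (SE, adjusted p = 0.00846). *Atg14*, which directs the complex to autophagosome formation instead, overlapped between the stages at 5.75 to 10.8 TPM (difference 0.28, adjusted p = 0.509). *Ambra1*, which links Beclin 1 to the ULK complex, had all adult samples above all embryonic ones and a difference of 0.54 that did not pass (adjusted p = 0.0802).

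Of the 5 genes that bring membrane and lipid to the growing autophagosome, 1 rose. *Atg2a*, a lipid transfer protein, measured 16.3, 15.2 and 16.9 TPM in the embryonic samples and 35.8, 66.6 and 36.1 TPM in the adult samples. Adult replicate 2 was far above the other adult samples, and all 3 were above the embryonic range. The difference was 1.40 ± 0.27 (SE, adjusted p = 0.00351). Its paralog *Atg2b* had the opposite sign and did not pass, with all adult samples (12.4 to 18.0 TPM) below all embryonic ones (19.5 to 23.8 TPM) and a difference of -0.39 (adjusted p = 0.243). The WIPI genes, whose proteins read the phosphoinositide mark, also had opposite signs, with *Wipi1* at 0.56 (adjusted p = 0.0519) and *Wipi2* at -0.47 (adjusted p = 0.0583). *Atg9a*, the scramblase on the vesicles that seed the membrane, had a difference of 0.75 and an adjusted p of 0.0506.

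The conjugation enzymes and the ATG4 proteases counted 3 of 10 genes higher and 0 lower in limma, also 0 lower at an unadjusted p under 0.05. The higher share was 30%, against 23.9% of all genes. *Atg7* (chr6:114643097-114860614), the E1-like enzyme that activates both ATG12 and the ATG8 proteins, measured 8.14, 6.94 and 9.16 TPM in the embryonic samples and 38.8, 32.9 and 38.9 TPM in the adult samples. No embryonic sample came near the adult range. The difference of 2.06 ± 0.24 (SE, adjusted p = 0.000243) was the largest of the list after that of *Sqstm1*, leaving aside the fall of *Foxo6*.

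*Atg5*, which joins ATG12 and ATG16L1 in the complex that places ATG8 proteins on the membrane, measured 13.1, 18.2 and 23.02 TPM in the embryonic samples and 43.1, 37.5 and 33.05 TPM in the adult samples. Embryonic replicate 3 was the closest to the adult samples, and the stages did not overlap, with a difference of 1.05 ± 0.25 (SE, adjusted p = 0.0097). *Atg4b*, the main protease that trims and recycles ATG8 proteins, measured 52.98, 59.9 and 53.2 TPM in the embryonic samples and 75.5, 74.99 and 94.02 TPM in the adult samples. The stages did not overlap, but the difference of 0.54 ± 0.16 (SE, adjusted p = 0.0221) fell short of the threshold in 6 of 16 alternative analyses (adjusted p from 0.00982 to 0.0717). Of the other 7 genes, *Atg3* and *Atg4d* had all adult samples above all embryonic ones without passing, and *Atg4c* (8.48, 4.39 and 13.9 TPM in the embryonic samples and 23.6, 28.6 and 12.6 TPM in the adult samples) varied widely within both stages. *Atg4a*, which has a near-identical copy in another gene, *Atg10*, *Atg12* and *Atg16l1* had differences from -0.23 to 0.24, all with overlapping stages. *Atg4d* (4.82 to 11.1 TPM over all samples) shares 19.3% of its exon bases with *Kri1* on the opposite strand, which reached 43.9 TPM and was itself higher in the adult samples (0.55, adjusted p = 0.0465). Whether reads were counted by strand was not given in the sources used here, so reads of this overlap may count for either gene.

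ATG8 family proteins coat the autophagosome, and 2 of the 5 genes were higher in adult chondrocytes. *Map1lc3b* (chr8:121590361-121598760), which encodes the widely used marker LC3B, measured 140.1, 136 and 144 TPM in the embryonic samples and 274, 274 and 367 TPM in the adult samples. The embryonic samples lay close together, and each adult sample was far above them. The difference was 1.10 ± 0.15 (SE, adjusted p = 0.000426). *Gabarapl1* (chr6:129533160-129542346) measured 96.7, 98.7 and 91.7 TPM in the embryonic samples and 179.9, 209.8 and 247 TPM in the adult samples. The stages did not overlap and differed by 1.13 ± 0.15 (SE, adjusted p = 0.0004). An opposite-strand gene covers 28.3% of its exon bases and was at most 1.44 TPM.

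The other 3 ATG8 genes overlapped between the stages. *Gabarap* measured 315, 253 and 246 TPM in the embryonic samples and 234, 231.5 and 284 TPM in the adult samples, and it had the highest level of the family in all embryonic samples. Its difference was -0.12 (adjusted p = 0.542, 95% interval -0.45 to 0.22). *Map1lc3a*, the LC3A gene, measured 58.6, 54.98 and 71.5 TPM in the embryonic samples and 65.8, 56.6 and 43.1 TPM in the adult samples, a difference of -0.17 (adjusted p = 0.512). *Gabarapl2* measured 77.7, 61.1 and 71.8 TPM in the embryonic samples and 60.6, 81.9 and 141 TPM in the adult samples. Its adult samples spread over the whole embryonic range and beyond, the difference was 0.34 (adjusted p = 0.344), and 3 other genes carry near-identical copies of its coding sequence that could share its reads.

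In sum over the family, ATG8 transcripts averaged 639 ± 43.9 TPM in the embryonic and 917 ± 145 TPM in the adult samples, without overlap. *Gabarap* made up 42.3% ± 3.22 of the summed TPM of the family in the embryonic samples and 27.4% ± 1.26 in the adult samples (SD, n = 3). *Map1lc3b* held 21.98% ± 1.42 of the summed TPM of the family in the embryonic samples and 33.2% ± 0.978 in the adult samples, so that in the adult samples its share was above that of *Gabarap* in each sample and in the embryonic samples below it. *Gabarapl1* held 14.1% to 16.4% in the embryonic and 22.1% to 24.6% in the adult samples.

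Such shifts within a family were compared as log2 ratios of TPM + 1 for 10 pairs of paralogs, chosen after their values were seen. Ratios of the stages did not overlap for 8 pairs, each at an exact two-sided permutation p of 0.1, the smallest that 3 samples against 3 allow (0.125 adjusted over the 10 pairs). For pairs picked in this way, among which *Foxo1* and *Gabarapl1* recur, neither p measures chance, and the ratios are a description only. Ratios of other gene pairs were not computed. Of all single genes tested, 30.7% had every adult sample above every embryonic one and 25.9% below. The log2 ratio was higher in the adult samples by 2.06 for *Foxo1* over *Foxo4*, 1.79 for *Atg2a* over *Atg2b*, 1.28 for *Map1lc3b* over *Map1lc3a* and 1.24 for *Gabarapl1* over *Gabarap*. It was also higher by 1.03 for *Wipi1* over *Wipi2*, 1.00 for *Foxo1* over *Foxo3*, 0.87 for *Lamp1* over *Lamp2* and 0.79 for *Gabarapl1* over *Gabarapl2*. Ratios of *Ulk1* over *Ulk2* and of *Tfe3* over *Tfeb* overlapped (exact p = 0.2). A ratio of plain TPM within a sample does not move when the sample is scaled by a factor. The ratios given here can, because of the pseudocount of 1, and most for genes at low levels.

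All 3 cargo receptors were higher in adult chondrocytes. *Sqstm1* (chr11:50199366-50210827) encodes p62, which binds ubiquitin on cargo and ATG8 proteins on the membrane and is itself degraded by autophagy, and it measured 831, 842 and 821 TPM in the embryonic samples and 4146, 4224 and 4184 TPM in the adult samples. Samples of each stage were close together, and the embryonic and adult levels were far apart. The difference was 2.33 ± 0.11 (SE, adjusted p = 1.47e-06), the largest rise and the smallest adjusted p of the list. Ranked by TPM, *Sqstm1* stood at place 154 to 162 among all genes in the embryonic samples and at place 13 to 15 in the adult samples. Its exons share 17.3% of their bases with *Mrnip* on the opposite strand, and *Mrnip* was at most 4.02 TPM.

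*Nbr1*, a larger receptor of the same architecture as p62, measured 51.9, 49.5 and 47.2 TPM in the embryonic samples and 119.5, 154 and 131 TPM in the adult samples. The stages did not overlap, and the difference was 1.42 ± 0.15 (SE, adjusted p = 0.000135). *Optn*, the optineurin gene, whose protein acts on damaged mitochondria and bacteria, measured 29.4, 26.1 and 30.4 TPM in the embryonic samples and 62.95, 91.04 and 68.5 TPM in the adult samples. Its adult samples were likewise all above the embryonic ones, with a difference of 1.33 ± 0.19 (SE, adjusted p = 0.000726). Of the TPM summed over the receptors, 91.1% to 91.8% came from *Sqstm1* in embryonic chondrocytes and 94.5% to 95.8% in adult ones.

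Of the 2 genes for factors that switch on lysosomal and autophagy genes, 0 passed the test in limma, and 0 had an unadjusted p under 0.05. *Tfeb* measured 78.8, 47.1 and 67.4 TPM in the embryonic samples and 50.5, 51.5 and 34.2 TPM in the adult samples, with overlapping stages and a difference of -0.49 (adjusted p = 0.132, 95% interval -1.04 to 0.06). *Tfe3* measured 50.2, 65.6 and 56.2 TPM in the embryonic samples and 68.2, 82.0 and 69.95 TPM in the adult samples. Its adult samples were all above the embryonic ones, though narrowly at the nearest samples, and the difference was 0.35 (adjusted p = 0.113, 95% interval -0.02 to 0.73). These are transcript levels, and the nuclear entry by which the proteins are controlled was not measured.

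LAMP1 and LAMP2 are the most abundant glycoproteins of the lysosomal membrane. *Lamp1* (chr8:13159161-13175338) measured 272, 261 and 248 TPM in the embryonic samples and 548, 589 and 660.2 TPM in the adult samples. The adult levels were all far above the embryonic ones, and the difference was 1.20 ± 0.12 (SE, adjusted p = 9.5e-05). *Lamp2*, on the X chromosome, measured 120.4, 129 and 154 TPM in the embryonic samples and 185, 157 and 163 TPM in the adult samples. Its adult samples were just above the embryonic range, and the difference of 0.33 did not pass (adjusted p = 0.091), although it did under quantile normalization and with the 20 most abundant genes left out (0.42 in each). Summed, LAMP transcripts were at 395 ± 5.71 TPM in the embryonic and 767 ± 48.5 TPM in the adult samples.

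**Figure D3:**
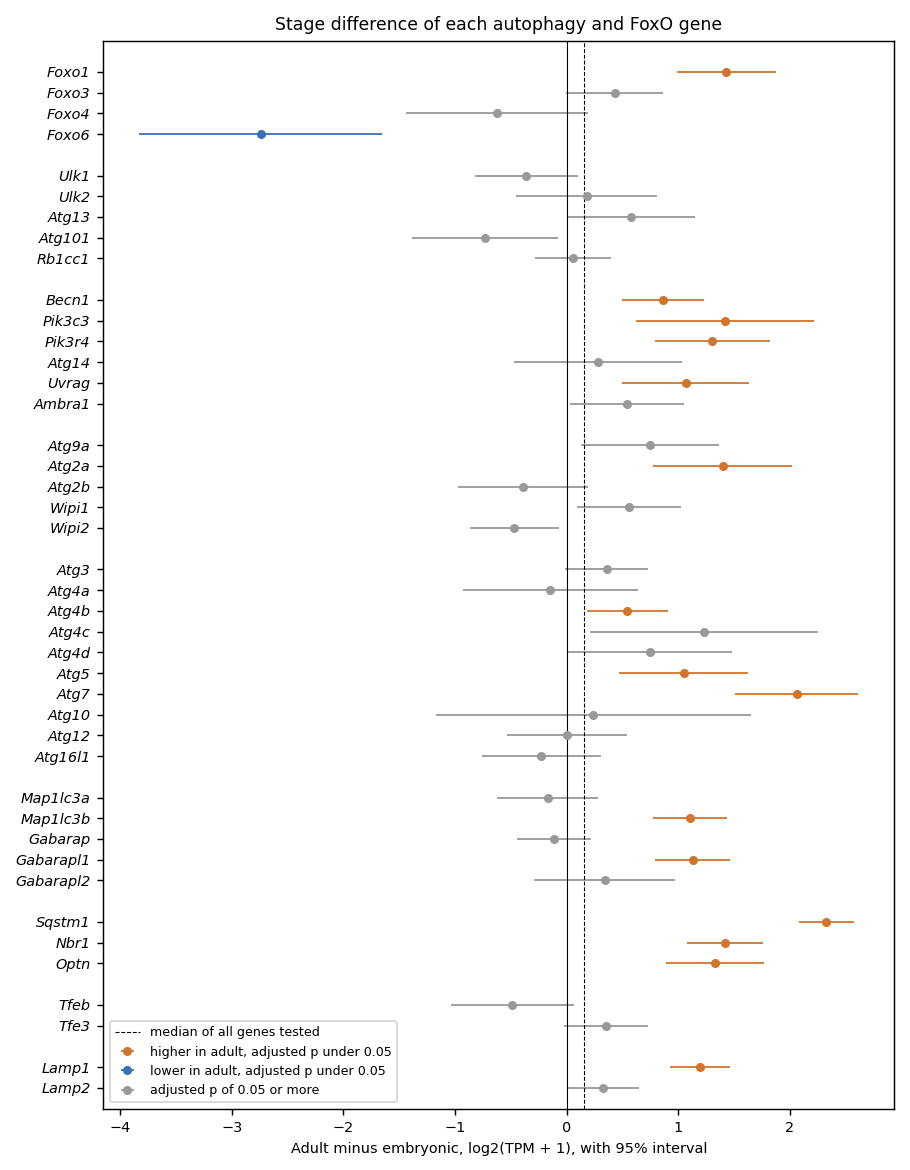
Adult minus embryonic difference of each of the 42 genes on the log2(TPM + 1) scale (points) with its 95% interval (bars), from limma over 3 samples per stage. Orange points are higher and blue lower at an adjusted p under 0.05, grey ones did not pass, and the dashed line is the median of all genes tested (0.16). *Sqstm1* (2.33) and *Atg7* (2.06) lie farthest to the right and *Foxo6* (-2.74) farthest to the left.

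Among the 26 genes that did not pass, 16 had a positive and 10 a negative difference. Their differences ran from -0.73 (*Atg101*) to 1.23 (*Atg4c*). For 10 of them the adjusted p was between 0.05 and 0.1. All adult samples stood above all embryonic samples for 9 of the 26 and below them for 3. Among all genes tested, whether they passed or not, 30.7% stood above and 25.9% below. Without the FoxO genes, the 38 autophagy genes counted 14 higher and 0 lower in limma (21 and 2 at an unadjusted p under 0.05), with a median difference of 0.54. *Foxo6* was thus the only call of a fall, and *Atg101* and *Wipi2* joined it under median of ratios.

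Further genes around these steps were taken from 7 lists of known members, 139 genes in all, of which 136 passed the filter on low values. Of these, 61 were higher in adult chondrocytes and 13 lower (44.9% and 9.56%, against 23.9% and 21.4% of all genes), with a median difference of 0.52. From each list the 3 genes with the largest absolute difference past the test are named.

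Fusion of autophagosomes with lysosomes and the lysosomal membrane held many genes that rose. Of 14 genes for fusion, 9 were higher and 0 lower in limma (10 and 1 at an unadjusted p under 0.05, and 8 and 1 when scaled by median of ratios), with a median of 0.89. *Tecpr1*, a tether between autophagosome and lysosome, had the largest change and measured 5.52, 9.71 and 8.002 TPM in the embryonic samples and 35.7, 56.1 and 44.6 TPM in the adult samples. Its stages did not overlap, and the difference was 2.42 ± 0.29 (SE, adjusted p = 0.000267). Next were *Vps33a* (1.82, adjusted p = 0.000721) and *Vps39* (1.56, adjusted p = 0.00735), subunits of the HOPS tethering complex, each with all adult samples above all embryonic ones.

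Of 20 genes for the MiT factors related to TFEB and for the lysosomal membrane, 14 were higher and 0 lower in limma (15 and 1 at an unadjusted p under 0.05), with a median of 0.98. The list holds 15 genes of the V-ATPase, the proton pump that acidifies the lysosome, of which 11 were higher and 0 lower in limma (12 and 0 at an unadjusted p under 0.05). Its subunit *Atp6v1e1* measured 85.5, 76.4 and 97.3 TPM in the embryonic samples and 401, 353 and 337 TPM in the adult samples. No adult sample was near the embryonic range, with a difference of 2.06 ± 0.14 (SE, adjusted p = 1.21e-05). *Mcoln1*, a calcium channel of the lysosome, was higher by 1.57 (adjusted p = 0.000318) and *Atp6ap1*, an accessory subunit of the pump, by 1.56 (adjusted p = 0.000179), both without overlap.

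Selective receptors beyond the 3 of the list counted 9 higher and 1 lower of 19, with a median of 0.45 (0 lower without embryonic replicate 2 and 2 lower without adult replicate 2). In shares this was 47.4% higher and 5.26% lower, against 23.9% and 21.4% of all genes. The largest changes were those of *Stbd1* (1.31, adjusted p = 0.0104), the glycogen receptor, *Calcoco1* (1.21, adjusted p = 0.0115) and *Tex264* (1.16, adjusted p = 0.000926), which act on the endoplasmic reticulum. All adult samples were above all embryonic samples for each of these 3 genes. The mitochondrial receptors *Bnip3*, *Bnip3l* and *Fkbp8* and the kinase gene *Pink1* were among the others that rose, by 0.95, 0.59, 1.01 and 0.95, and *Phb2*, a prohibitin of the inner mitochondrial membrane, fell by 0.68 on the log2 scale. A further 13 tested genes lie around early autophagosome formation (early autophagosome genes below), and they include inhibitors such as *Rubcn*. Of these, 5 were higher (*Atg16l2*, *Rubcn*, *Bcl2l1*, *Zfyve1* and *Trappc8*) and 2 lower (*Tmem41b* and *Wdr45b*), or 38.5% and 15.4%. Over all genes the shares were 23.9% and 21.4%, and the median of these 13 was 0.43. They included *Atg16l2*, a paralog of *Atg16l1* (2.10, adjusted p = 0.00121), *Tmem41b*, a lipid scramblase (-1.25, adjusted p = 0.000241), and *Rubcn*, an inhibitor of the UVRAG form of the PI3-kinase complex (1.22, adjusted p = 0.00209), none with overlapping stages. The count of higher genes in this list was 3 with the replicate number as a block, without adult replicate 2 and without each embryonic sample in turn, and the split was 3 higher and 2 lower under quantile normalization and median of ratios.

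Nutrient sensing by mTORC1 and AMPK, which act on the ULK complex, counted 10 higher and 2 lower of 31, with a median of 0.43. In shares this was 32.3% higher and 6.45% lower, against 23.9% and 21.4% of all genes. *Rragb*, a Rag GTPase that brings mTORC1 to the lysosome and lies on the X chromosome, measured 1.14, 1.56 and 1.94 TPM in the embryonic samples and 28.4, 27.1 and 28.9 TPM in the adult samples. The difference of 3.53 ± 0.32 (SE, adjusted p = 6.36e-05) was the largest of that list, and the stages did not overlap. *Lamtor4*, of the complex that anchors the Rag GTPases, was higher by 1.81 (adjusted p = 0.0011) and *Prkag2*, an AMPK subunit, by 1.68 (adjusted p = 0.00382), with all adult samples above. *Mtor* itself rose by 1.51, while *Rragd* and *Sesn2* fell by 1.66 and 1.36 on the log2 scale. The split was 7 higher and 3 lower when scaled by median of ratios, and 1 gene was lower when adult replicate 1, adult replicate 2, embryonic replicate 1 or embryonic replicate 2 was left out.

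Signaling from PI3-kinase to the FoxO factors, which keeps them out of the nucleus when active, counted 3 genes higher and 4 lower of 21, with a median of -0.13. In shares this was 14.3% higher and 19% lower, against 23.9% and 21.4% of all genes, so neither exceeded the background. *Sgk1*, a kinase that phosphorylates FoxO factors, measured 442, 335 and 427 TPM in the embryonic samples and 839.9, 1236 and 1127 TPM in the adult samples. Its stages did not overlap, and the difference was 1.40 ± 0.17 (SE, adjusted p = 0.000322). *Ywhaz*, a 14-3-3 protein that holds phosphorylated FoxO factors in the cytoplasm, fell by 1.18 on the log2 scale (adjusted p = 5.36e-05), and *Skp2*, which marks FOXO1 for degradation, fell by 1.47 (adjusted p = 0.00619), each with all adult samples below all embryonic ones. The 3 *Akt* genes did not pass, with differences of -0.19, -0.13 and 0.37. Scaled by median of ratios the split was 2 higher and 6 lower, and 1 gene was higher without adult replicate 2, embryonic replicate 1 or embryonic replicate 2.

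Genes that textbooks give as FoxO targets moved in both directions, with 12 higher and 5 lower of the 22 tested and a median of 0.97 (3 lower without embryonic replicate 1 or embryonic replicate 3). In shares this was 54.5% higher and 22.7% lower, against 23.9% and 21.4% of all genes. The list pools genes that FoxO factors induce with genes that they repress, such as *Ccnd1*, so its counts and median mix both kinds. *Pdk4*, which shuts off glucose oxidation, measured 5.52, 4.17 and 4.06 TPM in the embryonic samples and 65.02, 84.6 and 112 TPM in the adult samples. The adult samples were far above the embryonic ones, and the difference was 3.96 ± 0.27 (SE, adjusted p = 1.34e-05). *Klf15*, a metabolic transcription factor, was listed at 0 in 2 embryonic samples and at 1.06 TPM in the third, and it measured 9.84, 9.03 and 19.7 TPM in the adult samples, all of them above the embryonic ones. *Ccnd1*, the gene of cyclin D1, known to be repressed by FoxO factors, measured 78.7, 60.3 and 73.1 TPM in the embryonic samples and 8.7, 4.49 and 3.51 TPM in the adult samples. It fell by 3.52 on the log2 scale (SE 0.32, adjusted p = 5.84e-05), without overlap. The antioxidant genes *Cat*, *Sod2* and *Prdx3* rose by 1.93, 1.97 and 0.99, while *Selenop* (0.04) and *Sesn3* (0.51) did not pass. Besides *Ccnd1*, the genes that fell were the apoptosis gene *Bcl2l11* (by 1.83 on the log2 scale), *Ccnd2* (by 0.75), *Irs2* (by 0.74) and *Cdkn1b* (by 0.61). All of these genes answer to other factors as well, and what part FoxO factors have in their levels was not tested.

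**Figure D4:**
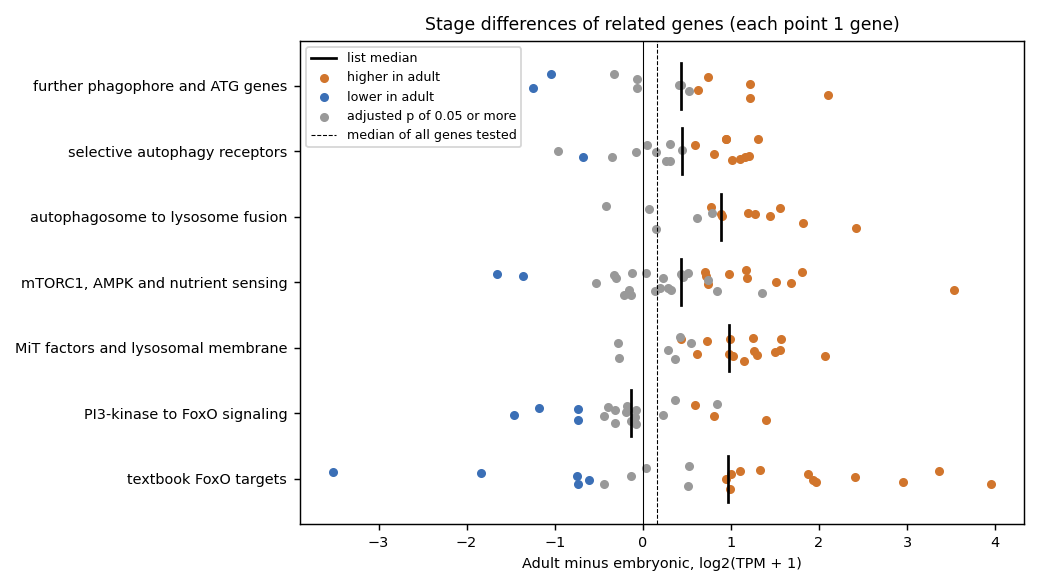
Adult minus embryonic difference on the log2(TPM + 1) scale for each tested gene (points) of the 7 lists of related genes, with vertical marks for list medians and a dashed line for the median of all genes tested (0.16). Orange points are higher and blue lower at an adjusted p under 0.05, and grey ones did not pass. Medians are highest for the lysosomal membrane (0.98), FoxO targets (0.97) and fusion (0.89), and lowest for PI3-kinase to FoxO signaling (-0.13).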

How the data were processed

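Sorted chondrocytes from embryonic and adult mouse knee cartilage were measured by RNA-seq (3 samples per stage). The methods name amplified cDNA (Nugen Ovation RNA-Seq System V2 with a Kapa LTP library) and the labels a Kapa mRNA-Seq kit, and neither states strand. Reads were mapped to GRCm38 and quantified with RSEM, whose version is not stated, and the authors deposited log2(TPM + 1) per gene. Depth cannot be read from TPM, so precision rests on the spread between samples, which may be technical where replicates are not from separate animals. Each log2 value was taken back to TPM for levels. The deposited matrix has 22032 Ensembl identifiers, of which 21902 had a symbol in GENCODE M21 and 130 had none.

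Stages were compared with limma 3.58.1 in R 4.3.3 (lmFit, eBayes with a trend) on the log2 scale with a pseudocount of 1. Genes entered when their mean reached 1 TPM, with stage as the only term and a Benjamini-Hochberg adjusted p under 0.05 as the threshold. EBSeq, named in the methods, models expected counts and was not used. The test was tested on simulated data. The analysis was repeated with a pseudocount of 0.1, with the filter dropped or raised to 5 TPM, after quantile normalization, after scaling by median of ratios or to a total that omits the 20 most abundant genes, with eBayes robust or free of the trend, with a replicate block, at a threshold of 0.01, and leaving out each sample.

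The members and lists were chosen with earlier results of these data known. Values of every sample are given for each member past the threshold and for the FoxO, ATG8, receptor, TFEB, TFE3 and LAMP genes, and of each related list the 3 largest absolute differences past the threshold are named. Any other gene was picked with its values in view. Promoters are those of RefSeq. Coding sequences were compared with BLAST 2.17.0, and a copy counted at 95% identity over at least 90% of the coding length. Python 3.11.15 (pandas 2.3.3, matplotlib 3.10.9) made the tables and plots.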

Additional observations from a re-analysis of the deposited data

How the results depend on the processing

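Of the 15 members higher in adult chondrocytes, 13 were higher under every alternative. *Atg4b* was not under median of ratios, eBayes without trend, a threshold of 0.01 and without embryonic replicate 1, embryonic replicate 3 or adult replicate 3, and *Pik3c3* was not at 0.01. The count was 14 under median of ratios, 21 with the 20 most abundant genes left out and 15 to 18 with a sample left out. The count of lower members (1) was 0 at a mean of at least 5 TPM, where *Foxo6* and *Atg10* were not tested, 2 under quantile normalization, 3 under median of ratios and 1 to 2 with a sample left out.

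At a threshold of 0.01, 1855 of all genes were higher and 1863 lower, and the lists counted 3 higher for early autophagosome genes, 4 higher and 0 lower for selective receptors, 1 lower for nutrient sensing, 1 higher for PI3-kinase to FoxO signaling and 3 lower for FoxO targets. Early autophagosome genes counted 3 higher under quantile normalization, median of ratios and the replicate block. Counts of lower genes under median of ratios were 2 for selective receptors, 1 for fusion and 1 for the lysosomal membrane. Selective receptors counted 0 lower without the trend. Nutrient sensing counted 1 lower with a pseudocount of 0.1, without a filter or without the trend. With a sample left out, counts ran from 3 to 5 higher for early autophagosome genes, 0 to 2 lower for selective receptors, 0 to 1 lower for fusion, 1 to 2 lower for nutrient sensing, 0 to 1 lower for the lysosomal membrane, 1 to 3 higher for PI3-kinase to FoxO signaling and 3 to 5 lower for FoxO targets. The median of all genes (0.16) was 0.0864 without a filter, 0.0933 under quantile normalization, 0.0279 under median of ratios and 0.247 with the 20 most abundant genes left out.

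Only members that did not pass turned in sign. Under quantile normalization *Ulk2* was -0.0007 and *Atg12* -0.1476, and under median of ratios *Rb1cc1* was -0.0908 and *Atg12* -0.1364. With a sample left out, the difference ran from -0.0747 to 0.3338 for *Ulk2*, -0.0137 to 0.1743 for *Rb1cc1*, -0.3847 to 0.0811 for *Atg4a*, -0.3995 to 0.7719 for *Atg10*, -0.1818 to 0.144 for *Atg12* and -0.3718 to 0.0428 for *Atg16l1*. The cause of these shifts was not tested.

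Deviations of samples with the same replicate number had correlations of -0.01, -0.02 and -0.02. Such correlations cannot show whether same-numbered samples were processed together, since an effect on few genes would not appear in them. With the number as a replicate block, 15 members were higher, all 15 of them shared with the analysis without it, 1 was lower, and 2871 of all genes were higher and 2559 lower.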
